A study of Mus musculus with 31 samples.

Results

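The comparison described here is that of 4 arrays of cells treated with neuromedin U (NmU) for 12 h with 4 arrays of cells treated with NmU for 6 h, 8 of the 31 arrays of a series on a mouse T cell clone. The arrays were chosen by treatment and time as given in their titles, and the same question was put to 4 arrays of cells kept in phosphate-buffered saline (PBS) for 12 h and 4 for 6 h. All groups were cells of D10.G4.1, a CD4+ clone of the type 2 helper T (Th2) kind, so that every value belongs to 1 clone. Total RNA of each sample was hybridised to 1 array of oligonucleotide probe sets. Signals are the deposited intensities of these probe sets on a linear scale. Whether the replicates came from separate cultures is not stated in the labels. The p-values therefore measure only the spread between arrays within groups, pooled over all 31 arrays of the series. That spread may be technical, and 4 arrays a group limit the precision.

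Neuromedin U is a peptide of neurons and gut whose receptors, Nmur1 and Nmur2, couple to G proteins. In immune cells it is known as a signal from nerves to Nmur1-bearing lymphocytes, which answer with calcium release, activation of MAP kinases and secretion of type 2 cytokines. Th2 cells make the cytokines Il4, Il5 and Il13, which drive antibody class switching to IgE, eosinophilia and mucus production.

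The cells carried the T cell markers Cd3e, Cd3g and Cd4 and the Th2 factor Gata3 (2433 at 12 h and 2310.2 at 6 h of NmU, mean signals), while the defining T cell marker Thy1 had a mean signal of 5.75 in both NmU groups. Of 10 T and Th2 markers, 8 had a mean above 20.2 in both NmU groups. This threshold is the 40th percentile of all values, used as the filter for testing, and is not a call of detection. The 10 summed to 8069.1 to 9465.2 at 12 h and 9933.6 to 11483.1 at 6 h. Markers of other cell types also passed this threshold. In each group these were 3 of 5 myeloid, 2 of 4 antigen-presenting and 2 of 4 fibroblast markers and the 1 erythroid marker. Of 4 B cell markers 2 passed at 12 h and 3 at 6 h. Of 5 CD8 and natural killer markers 0 passed at 12 h and 1 at 6 h, and 0 of 3 mast cell markers did. The brightest fibroblast marker averaged 324.65 at 12 h. The summed signal of 4 B cell markers was 88.1 to 156.5 at 12 h and 142.8 to 161 at 6 h of NmU, and that of 5 myeloid markers 147.2 to 169.1 at 12 h and 141.1 to 185 at 6 h. For 4 markers of antigen-presenting cells it was 113.5 to 159 at 12 h and 85.6 to 126 at 6 h. The 5 markers of CD8 and natural killer cells summed to 28.8 to 49.3 at 12 h and 23.9 to 66.8 at 6 h, and the 3 mast cell markers to 12.7 to 29.3 at 12 h and 12.3 to 42.6 at 6 h. Fcer1a and Mcpt4 were at the floor in both groups, as was the myeloid marker Itgam. The 4 fibroblast markers summed to 314.9 to 483.8 at 12 h and 422.6 to 565.8 at 6 h, and the 1 erythroid marker on the array to 43.9 to 56.2 at 12 h and 29 to 47.5 at 6 h. None of the markers of other cell types was among the probe sets changed between 6 h and 12 h. On the 8 arrays the median signal was 36.25 to 41.8, and 17.0% to 24.1% of probe sets did not exceed the floor of 5.8 that was set before log2 was taken.

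Between 6 h and 12 h of NmU, few transcripts were called as changed. Among those lower at 12 h were the small GTPase Gem, the cytokine Il4, the adaptor Lcp2 and enzymes of cholesterol synthesis. Pth, Ddit4 and Ak1 were among those higher. Smaller changes can be missed with this number of arrays. NmU 6 h replicate 4 stood apart from its group for genes such as Fos, Egr2 and Ier2, so the model was fitted with and without it. Its correlation with the rest of its group over the probe sets (r = 0.979) was within the range of the 8 NmU arrays, 0.979 to 0.985. A probe set was kept where it passed an adjusted p of 0.05 in both fits in the same direction. Of 7479 probe sets tested in both fits, 24 were higher at 12 h (0.321%) and 32 were lower (0.428%). With all arrays 65 were called (0.862%), and without NmU 6 h replicate 4 there were 85 (1.13%). In PBS 0 probe sets were called between 12 h and 6 h (0% by limma, lowest adjusted p = 0.773), with 469 at an unadjusted p under 0.05, against 955 in NmU. In bulk RNA of this kind, fewer cells of a state and less RNA per cell cannot be told apart.

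The changes were modest in size. The median log2 change was 0.58 among the 24 higher and -0.66 among the 32 lower probe sets, against 0.0022 over all tested, and 3 of the higher and 2 of the lower reached 2-fold. In PBS the same probe sets moved by a median of 0.06 and -0.03, with single values between -0.30 and 0.59. On 286 of the 7479 probe sets all NmU 12 h arrays lay above all NmU 6 h arrays (3.82%). On 305 all lay below (4.08%). Such separation held for 23 of the 24 kept as higher and 31 of the 32 kept as lower. The kept probe sets were selected on these same arrays, so their separation adds no support to the calls. The kept probe sets with a single gene symbol stood for 47 genes, 23 higher and 24 lower. For 42 of these genes the kept probe set was the brightest of the gene, which is the one described below unless another is named. Over all 5615 genes tested by their brightest probe set, 21 were kept as higher (0.374%) and 21 as lower (0.374%). The other 6 kept probe sets, 5 lower and 1 higher, had no single gene symbol. Of the 32 lower probe sets, 23 had their lowest 6 h signal on NmU 6 h replicate 4, and of the 24 higher probe sets 8 had their highest 6 h signal on that array.

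**Figure D1:**
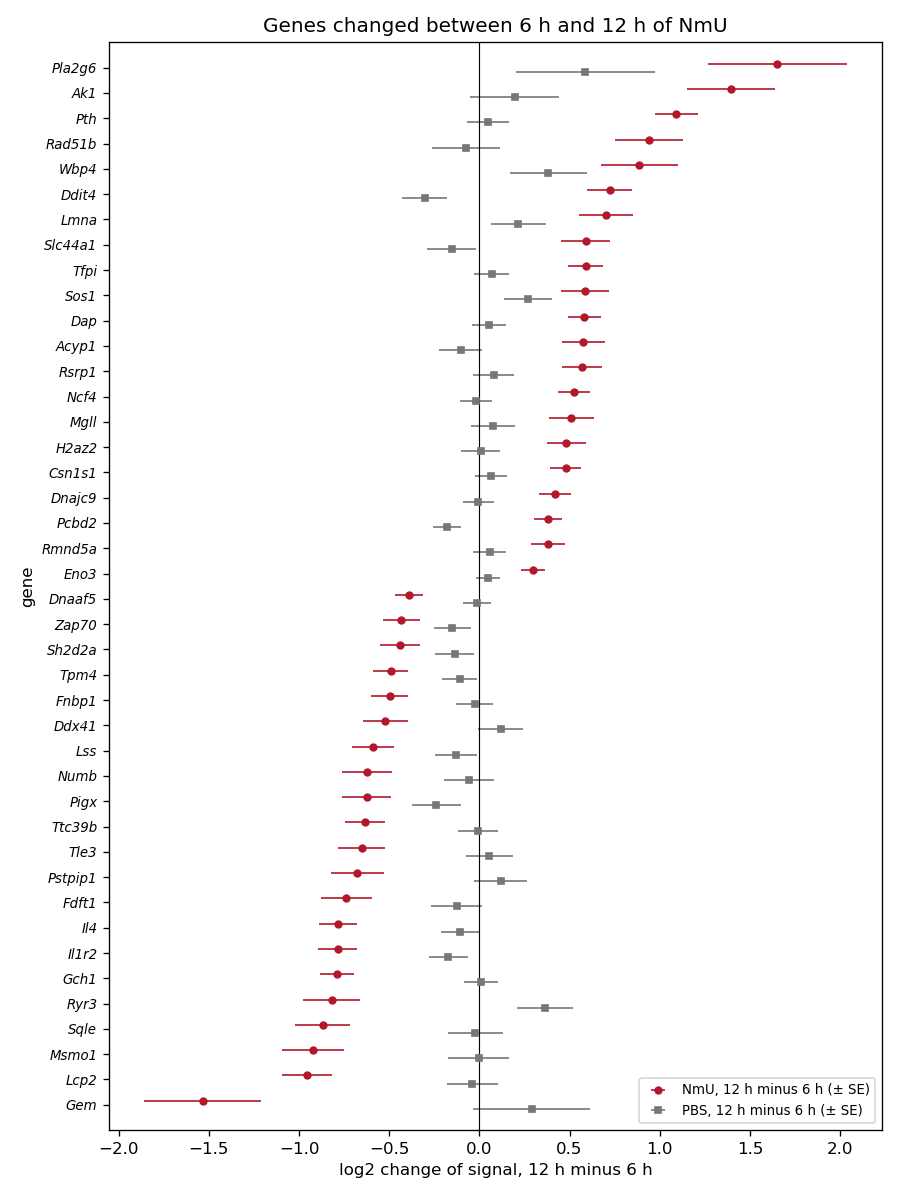
Log2 change of signal between 12 h and 6 h for the 42 genes kept by their brightest probe set, with NmU (red circles) above PBS (grey squares) in each row and bars of 1 standard error from limma (n = 4 arrays per group). The NmU values run from 1.65 for Pla2g6 to -1.53 for Gem, while the PBS values lie between -0.30 and 0.59.

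Adjusted p-values below are given as a pair from limma, the first with all arrays and the second without NmU 6 h replicate 4, and log2 changes are 12 h minus 6 h with all arrays (± SE). The call of each of the 42 genes was also tried without each of the other 7 NmU 12 h and 6 h arrays in turn. It held without any of them for 13 genes, 4 higher (Pth, Dap, Ncf4 and Tfpi) and 9 lower (Gch1, Lcp2, Il1r2, Il4, Msmo1, Sqle, Lss, Ttc39b and Dnaaf5). It was lost without 1 to 3 of these arrays for 7 genes, and without 4 or more for 22. With the 8 NmU arrays alone in the fit, 7 of the 42 genes kept their call (Gem, Pth, Lcp2, Gch1, Il4, Ak1 and Pla2g6), and 19 did after scaling to equal array medians.

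Gem, a small GTP-binding protein that restrains voltage-gated calcium channels, had the largest fall among the 42. Its signals were 77.4, 65.4, 77.3 and 52.8 on the NmU 12 h arrays, against 238, 225, 204 and 132 on the NmU 6 h arrays. The groups did not overlap, and the lowest of the 6 h signals was that of replicate 4. In PBS the signals were 19.9, 25.8, 21.8 and 20.9 on the PBS 12 h arrays, against 29.1, 12.1, 16.7 and 17.8 on the PBS 6 h arrays, so that NmU arrays remained above PBS arrays at both times. The log2 change in NmU was -1.53 ± 0.33 (adjusted p = 0.0154 and 0.0101). The call was lost without NmU 12 h replicate 4, NmU 6 h replicate 1 or NmU 6 h replicate 2, at an adjusted p of up to 0.0628. Along the time course of NmU, Gem averaged 55.7 ± 12.8 at 0.8 h, 82.1 ± 0.611 at 3 h, 200.1 ± 47.2 at 6 h and 68.2 ± 11.7 at 12 h (SD, n = 4, and n = 3 at 3 h).

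The probe set that the probe table names Pth, the gene of parathyroid hormone, a regulator of calcium in blood, moved the other way. Whether it, or those named Csn1s1 and Tfpi below, reports that transcript in this T cell clone was not checked, since no probe sequences were used here. The Pth probe set had 1366, 1476, 1409.8 and 1546 on the NmU 12 h arrays, against 715, 603, 774 and 636 on the NmU 6 h arrays. The 12 h signals were close together, and all lay far above the 6 h signals. In PBS it had 454, 494, 469 and 518 on the PBS 12 h arrays, against 417, 522, 467 and 467 on the PBS 6 h arrays, with both groups in the same range. In NmU the log2 change was 1.09 ± 0.12 (adjusted p = 6.78e-06 and 3.68e-05), the smallest adjusted p of any gene that rose. At 0.8 h and 3 h of NmU the means were 524 ± 56.3 (SD, n = 4) and 649 ± 21.5 (SD, n = 3).

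Ddit4, also known as REDD1, is an inhibitor of the growth-controlling kinase complex mTORC1 and is induced by energy and nutrient stress. Its signals were 549.9, 400.3, 539 and 402 on the NmU 12 h arrays, against 297, 255, 299 and 284 on the NmU 6 h arrays. All 12 h signals were above all 6 h signals, and within the 12 h group replicates 2 and 4 lay below replicates 1 and 3. The log2 change was 0.72 ± 0.13 (adjusted p = 0.00274 and 0.00597), and the call was lost without NmU 6 h replicate 2 (adjusted p = 0.0586). In PBS the signals were 519, 539.7, 399 and 537 on the PBS 12 h arrays, against 632, 582, 601 and 629.5 on the PBS 6 h arrays, a log2 change of -0.30 ± 0.13 (adjusted p = 0.773). NmU minus PBS was -0.08 ± 0.13 at 12 h (adjusted p = 0.86) and -1.11 ± 0.13 at 6 h (adjusted p = 1.53e-06), where the 6 h and 12 h NmU arrays are the same as in the comparison over time. Of 18 tested genes of amino acid stress and mTOR control, Ddit4 alone was kept as higher and 0 as lower, with 14 of the 18 changes below 0 and a median of -0.21. Over all 5615 genes tested, 0.374% were kept in each direction and 2746 changes were below 0. Ddit4 was also given as a marker of this comparison, so its call in the list is not independent of that choice. The stress factor Atf4 differed by -0.36 ± 0.09 (adjusted p = 0.0536 and 0.0709) and the amino acid transporter Slc7a5 by -0.39 ± 0.11 (adjusted p = 0.0972 and 0.0638).

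**Figure D2:**
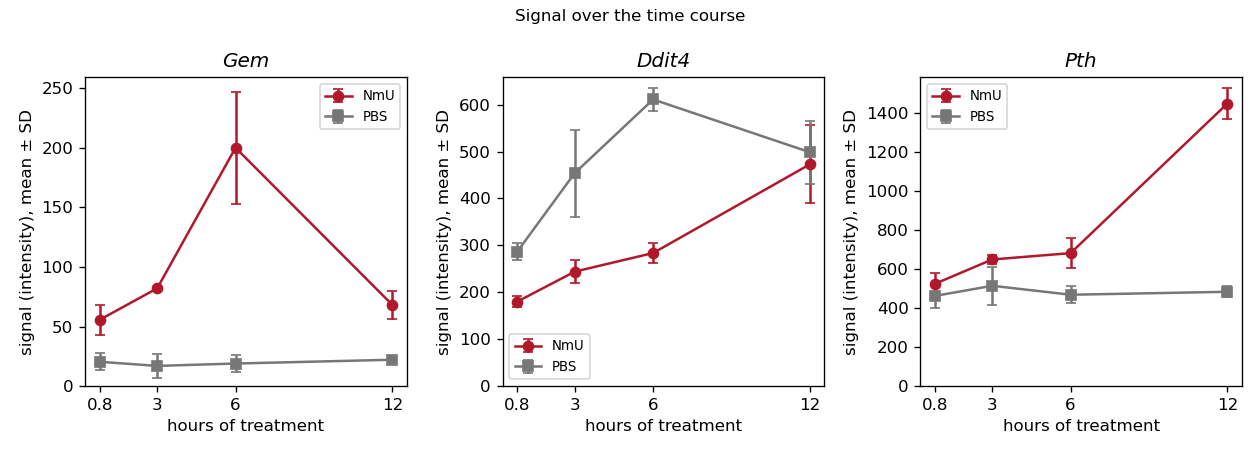
Mean signal ± SD of Gem, Ddit4 and Pth at 0.8, 3, 6 and 12 h in NmU (red circles) and PBS (grey squares), on linear axes that start at 0 (n = 4 arrays per point, n = 3 for NmU at 3 h). Gem in NmU peaked at 6 h, Ddit4 in NmU met the PBS level at 12 h, and Pth in NmU was highest at 12 h.

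The promoters of Ddit4 and Gch1 are shown because these genes moved in opposite directions and both changes differed from those in PBS. The bases before the start of the gene are from RefSeq on GRCm38.p6, 5′ to 3′ along the gene, at chr10:59951771-59952020 on the minus strand and chr14:47189414-47189663 on the minus strand. Capitals mark the CCAAT box (CCAAT on either strand) and the core of the cyclic AMP response element (TGACG on either strand).
Ddit4: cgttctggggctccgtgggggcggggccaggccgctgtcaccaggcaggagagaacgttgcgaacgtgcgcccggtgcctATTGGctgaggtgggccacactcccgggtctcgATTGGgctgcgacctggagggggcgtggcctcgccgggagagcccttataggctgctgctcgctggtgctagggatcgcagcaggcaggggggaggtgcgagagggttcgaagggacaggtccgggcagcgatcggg
Gch1: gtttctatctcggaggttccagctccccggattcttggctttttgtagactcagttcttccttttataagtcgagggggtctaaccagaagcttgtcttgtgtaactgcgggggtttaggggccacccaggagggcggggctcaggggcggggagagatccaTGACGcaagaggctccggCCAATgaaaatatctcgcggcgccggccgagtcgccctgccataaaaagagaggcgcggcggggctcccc
The window of Ddit4 held 2 CCAAT boxes, and that of Gch1 held 1 CCAAT box and 1 TGACG, which began 88 bases before the start. Of 32851 mouse promoter windows of 250 bases, 33.85% held CCAAT and 17.77% held TGACG. These are matches of letters and not measured binding.

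Gch1, the enzyme that opens the synthesis of tetrahydrobiopterin, a cofactor of nitric oxide synthases and aromatic amino acid hydroxylases, had 75, 71.5, 69.8 and 66 on the NmU 12 h arrays, against 129.5, 115, 130.4 and 113 on the NmU 6 h arrays. The groups were far apart, with the highest 12 h signal well below the lowest 6 h signal. In PBS it had 51.5, 50.1, 47.2 and 49.4 on the PBS 12 h arrays, against 48.9, 49.9, 45 and 53.6 on the PBS 6 h arrays, and these groups overlapped. The log2 change in NmU was -0.79 ± 0.09 (adjusted p = 1.56e-05 and 3.68e-05). At 12 h NmU arrays were still above PBS arrays, by 0.51 ± 0.09 (adjusted p = 0.00226). Pcbd2, an enzyme that recycles the same cofactor, was higher at 12 h, with 399, 386, 422 and 380.4 on the NmU 12 h arrays, against 297, 321, 290.3 and 311 on the NmU 6 h arrays. Its log2 change was 0.38 ± 0.08 (adjusted p = 0.0126 and 0.0236), and the call was lost without any of 4 arrays (NmU 12 h replicate 1 or 3 and NmU 6 h replicate 1 or 3), at an adjusted p of up to 0.107.

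**Figure D3:**
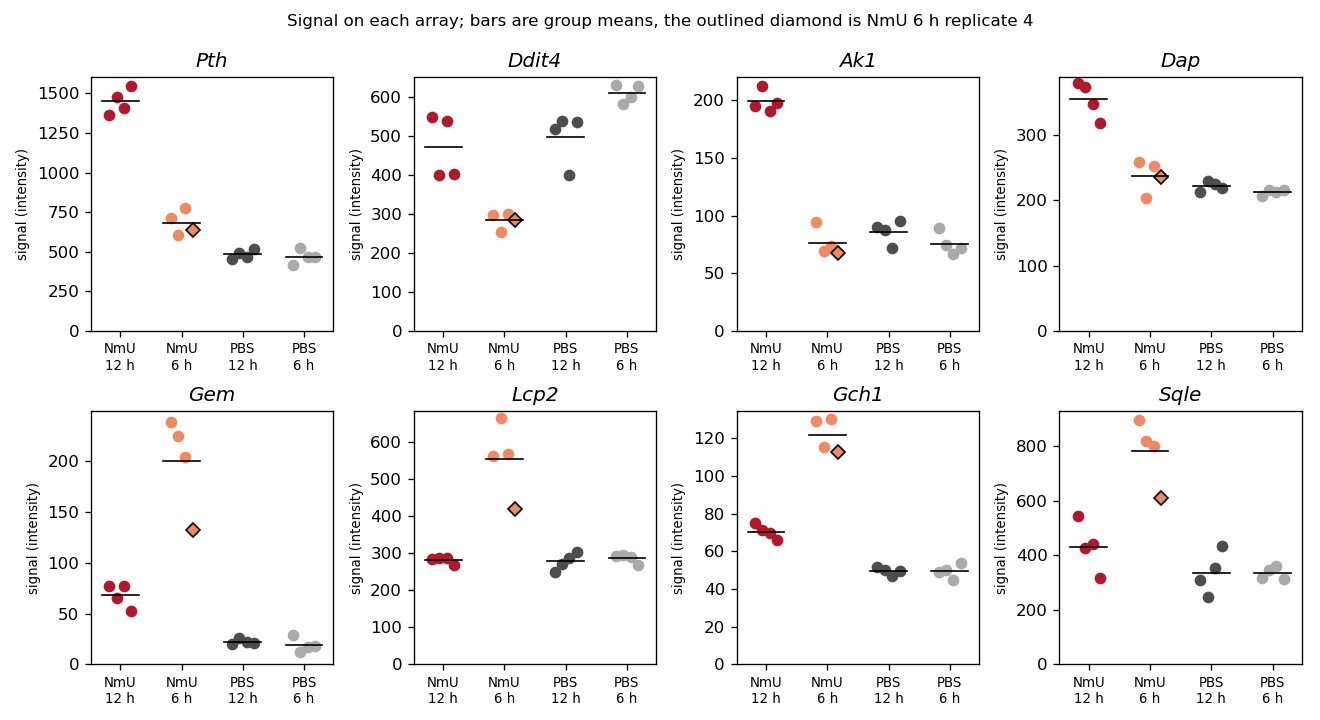
Signal on each array, on linear axes that start at 0, for 4 genes that were higher at 12 h (top row) and 4 that were lower (bottom row), with bars at the means of the 4 arrays of each group and a diamond for NmU 6 h replicate 4. In all 8 panels the NmU 12 h points do not overlap the NmU 6 h points, but these genes were selected on the same arrays. For Gem, Lcp2, Gch1 and Sqle the diamond is the 6 h point nearest to the 12 h group.

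Of 13 tested genes of T cell receptor signalling, Lcp2 and Zap70 were kept as lower (2 genes) and 0 as higher, with a median change of -0.09, where 0.374% of all genes were kept as lower. Lcp2 encodes SLP-76, the adaptor that links the receptor kinases to phospholipase C and calcium release. Its signals were 284, 288, 288 and 269 on the NmU 12 h arrays, against 564, 664, 569 and 419 on the NmU 6 h arrays. In PBS they were 251, 272, 288 and 305 on the PBS 12 h arrays, against 293, 295, 290.4 and 267 on the PBS 6 h arrays, so that the 12 h NmU arrays lay in the range of the PBS arrays and the 6 h NmU arrays lay above it. In NmU the log2 change was -0.95 ± 0.14 (adjusted p = 3.75e-04 and 5.17e-05). The receptor kinase Zap70 had 1773, 1893, 1946 and 2048 on the NmU 12 h arrays, against 2373, 3092, 2534 and 2392 on the NmU 6 h arrays, a log2 change of -0.43 ± 0.10 (adjusted p = 0.0356 and 0.0306), and another of its probe sets was also kept (-0.52 ± 0.09). The call of the brighter probe set of Zap70 was lost without any of 5 arrays (NmU 12 h replicate 1, 2 or 3 and NmU 6 h replicate 2 or 3), at an adjusted p of up to 0.276. The receptor chains Cd3e, Cd3d, Cd3g and Cd247 were not kept, with changes between -0.19 and 0.20.

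Sh2d2a, Pstpip1, Fnbp1 and Tpm4 were also kept as lower. Sh2d2a, the T cell-specific adaptor TSAd, had 543, 493, 517 and 510.1 on the NmU 12 h arrays, against 649.8, 859, 708 and 606 on the NmU 6 h arrays (-0.44 ± 0.11, adjusted p = 0.0481 and 0.0236). Pstpip1, an adaptor that binds phosphatases and the actin machinery, changed by -0.68 ± 0.15 (adjusted p = 0.0171 and 0.0237), Fnbp1, which bends membranes for endocytosis, by -0.50 ± 0.10 (adjusted p = 0.0122 and 0.0284), and Tpm4, a tropomyosin, by -0.49 ± 0.10 (adjusted p = 0.00893 and 0.00721). Both tested probe sets of Fnbp1 were kept, while a further probe set of Pstpip1 differed by -0.11 and was not. The call of Tpm4 was lost without NmU 6 h replicate 1 (adjusted p = 0.0503), and those of Sh2d2a, Pstpip1 and Fnbp1 were lost without 7, 4 and 6 of the 7 arrays, at adjusted p of up to 0.211, 0.217 and 0.110.

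Of the genes of receptors, calcium and cyclic AMP, 1 of 21 tested was kept as lower (Gem) and 0 as higher, with a median change of 0.06. Over all genes 0.374% were kept in each direction, and Gem was also given as a marker of this comparison. The receptor of NmU itself, Nmur1, had a mean of 132 ± 24.1 at 12 h and 254 ± 18 at 6 h of NmU (SD, n = 4 each), without overlap, and was not kept (-0.96 ± 0.25, adjusted p = 0.0599 and 0.092). In PBS its means were 195 ± 27.7 at 12 h and 195 ± 25.1 at 6 h (SD, n = 4 each). The catalytic subunit of protein kinase A Prkacb and the calcium release channel Itpr2 were called without NmU 6 h replicate 4 and not with it, at 0.40 ± 0.10 (adjusted p = 0.0502 and 0.00699) and 0.70 ± 0.20 (adjusted p = 0.091 and 0.0348). Ryr3, a ryanodine receptor that releases calcium from stores and is not on that list, had 23.2, 27.7, 20.6 and 18.9 on the NmU 12 h arrays, against 43.5, 35.4, 35.5 and 44.4 on the NmU 6 h arrays. In PBS it had 25.7, 40.4, 45.4 and 27.7 on the PBS 12 h arrays, against 25.4, 28.1, 26.8 and 25 on the PBS 6 h arrays, and these groups overlapped. Its log2 change in NmU was -0.82 ± 0.16 (adjusted p = 0.00687 and 0.0236), and the call was lost without any of 6 arrays, at an adjusted p of up to 0.143. Less bright probe sets of the thrombin receptor F2r (-0.86 ± 0.20, adjusted p = 0.0308 and 0.0316) and of Rgs10, which speeds the turning off of G proteins (-0.72 ± 0.14, adjusted p = 0.00806 and 7.21e-04), were kept as lower, while the brightest probe sets of these genes, at -0.28 and -0.49, were not.

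Of the 7 Th2 cytokines, all of them tested, Il4 was kept as lower and 0 were kept as higher, with a median change of -0.35 in NmU and -0.05 in PBS. Over all genes 0.374% were kept in each direction. Il4, the signature cytokine of these cells, had 1177, 1217, 1140.5 and 1265 on the NmU 12 h arrays, against 1918, 2401, 2080.1 and 1906 on the NmU 6 h arrays. The 12 h signals spanned a narrow range that lay below every 6 h signal. In PBS the signals were 519, 512, 493 and 557 on the PBS 12 h arrays, against 574, 607, 545 and 514 on the PBS 6 h arrays, so that NmU arrays lay above PBS arrays at both times. The log2 change in NmU was -0.79 ± 0.11 (adjusted p = 1.17e-04 and 1.96e-04). Of 4 tested probe sets of Il4 a second was kept (-1.09 ± 0.19) and the others differed by -0.17 and -0.03, and the mean over all probe sets was not kept (-0.52, adjusted p = 0.0633). Il13 differed by -0.47 ± 0.14 (adjusted p = 0.112 and 0.119), Il6 by -0.35 ± 0.12 (adjusted p = 0.211 and 0.357), Il10 by -0.08 ± 0.12 (adjusted p = 0.841 and 0.948) and the mast cell growth factor Il3 by -0.35 ± 0.41 (adjusted p = 0.779 and 0.726). The eosinophil growth factor Il5 had means of 391 ± 58 at 12 h and 302 ± 71.7 at 6 h (SD, n = 4 each; 0.39 ± 0.24, adjusted p = 0.535 and 0.79), and its change without NmU 6 h replicate 4 was 0.22. Il9 differed by 0.40 ± 0.28 (adjusted p = 0.593 and 0.567). For Il5 and Il9 the estimated change was above 0, and neither was called.

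The Il4 promoter is shown because Il4 was the only Th2 cytokine kept and is a known target of the calcium-dependent factor NFAT in T cells. It is taken from RefSeq on GRCm38.p6 at chr11:53618666-53618915 on the minus strand, and capitals mark the NFAT core, GGAAA on either strand.
Il4: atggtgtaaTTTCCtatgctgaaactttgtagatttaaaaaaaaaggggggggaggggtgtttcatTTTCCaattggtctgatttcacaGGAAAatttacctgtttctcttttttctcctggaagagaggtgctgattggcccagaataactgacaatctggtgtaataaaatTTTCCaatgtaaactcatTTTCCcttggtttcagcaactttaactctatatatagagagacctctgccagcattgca
The window held 5 matches of GGAAA and 4 of CCAAT, and 2 of the CCAAT matches share bases with a GGAAA match. In the set of mouse promoters 55.57% held GGAAA. The window of Lcp2 held 1 match of GGAAA, 41 bases before the start, and that of Pth, cut to the 151 bases outside the annotated gene, held none of the motifs searched.

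Il1r2, a decoy receptor that takes up interleukin 1, fell between 6 h and 12 h to below the PBS level. Its signals were 429, 541, 587 and 431 on the NmU 12 h arrays, against 836, 826, 810.3 and 929 on the NmU 6 h arrays. In PBS they were 813, 905, 767 and 876 on the PBS 12 h arrays, against 912, 980.3, 898 and 992 on the PBS 6 h arrays, above every NmU 12 h signal. The log2 change in NmU was -0.79 ± 0.11 (adjusted p = 1.17e-04 and 8.41e-04), and NmU minus PBS was -0.77 ± 0.11 at 12 h (adjusted p = 6.84e-05) and -0.15 ± 0.11 at 6 h (adjusted p = 0.481). A dimmer probe set of Il1r2 differed by -0.44 and was not kept.

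Among 7 other cytokines and 8 chemokines that were tested, 0 were kept in either direction, with medians of -0.33 and -0.19. Over all genes 0.374% were kept in each direction, so that few or none would be found in lists this short. The inflammatory cytokine Tnf had 133, 177, 106 and 121 on the NmU 12 h arrays, against 239, 291, 215 and 349 on the NmU 6 h arrays, and was called with all arrays and not without replicate 4 (-1.03 ± 0.22, adjusted p = 0.0156 and 0.0546). The monocyte attractant Ccl7 averaged 129 ± 15.6 at 12 h and 321 ± 83.3 at 6 h (SD, n = 4 each) without overlap (-1.29 ± 0.35, adjusted p = 0.075 and 0.182). Ccl1 differed by -0.87 ± 0.27 (adjusted p = 0.142 and 0.079) and the neutrophil attractant Cxcl2 by -0.56 ± 0.25 (adjusted p = 0.344 and 0.406). Ccl3, Ccl5 and Xcl1 had estimates above 0, at 0.28 ± 0.29, 0.46 ± 0.28 and 0.62 ± 0.49, and without NmU 6 h replicate 4 those of Ccl3 and Ccl5 were 0.11 and 0.23. Ccl4 differed by -0.38 ± 0.38 and Ccl22 by -0.00 ± 0.20. Ccl2, Ccl9, Ccl12, Ccl17 and Cxcl10 had mean signals below 20.2 in both NmU groups and were not tested.

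Of 19 tested immediate early genes, which are transcribed at once when a cell is stimulated, 0 were kept and 15 had a change below 0 (median -0.18). Of all 5615 genes tested, 2746 had a change below 0. The share kept over all genes was 0.374% in each direction, at which a list of this size holds few or none. The spread within the 6 h group was wide for several of the immediate early genes. Fos had 23.9, 17.2, 21.2 and 20.4 on the NmU 12 h arrays, against 33.6, 28.5, 31.1 and 337 on the NmU 6 h arrays, where replicate 4 was far above the rest. Its change was -1.45 ± 0.45 (adjusted p = 0.127 and 0.137) with all arrays and -0.59 without replicate 4. The AP-1 member Fosl1 was called with all arrays and not without replicate 4 (-0.86 ± 0.21, adjusted p = 0.0407 and 0.126). The zinc finger factor Egr2 had 173, 225, 190.3 and 186 on the NmU 12 h arrays, against 252, 277, 304 and 1705 on the NmU 6 h arrays, with a change of -1.18 ± 0.34 (adjusted p = 0.105 and 0.109), or -0.52 without replicate 4. Ier2 had 291, 318, 353 and 331 on the NmU 12 h arrays, against 393, 377, 409.6 and 1051 on the NmU 6 h arrays, with a change of -0.64 ± 0.19 (adjusted p = 0.112 and 0.168), or -0.28 without replicate 4. For Fos, Egr2 and Ier2 replicate 4 was the highest 6 h array.

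Among the gene lists, which were chosen with earlier results of these data known, cholesterol synthesis held the most genes kept as lower. Of 14 tested genes of the pathway 4 were kept as lower, against 0.374% of all genes, and 0 as higher, 12 had a change below 0, and the median was -0.57 in NmU and -0.01 in PBS, against 0.01 over all 5615 genes tested. Squalene synthase Fdft1, squalene epoxidase Sqle and lanosterol synthase Lss act one after the other, and the methyl sterol oxidase Msmo1 acts further down.

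Sqle, which oxidises squalene, had 544, 427, 442 and 317 on the NmU 12 h arrays, against 898, 821, 802 and 610.5 on the NmU 6 h arrays. In PBS it had 309, 248, 352 and 434 on the PBS 12 h arrays, against 317, 347, 361 and 314 on the PBS 6 h arrays, so that NmU at 6 h stood above all other groups. In NmU the log2 change was -0.87 ± 0.15 (adjusted p = 0.00288 and 0.00114). Msmo1 had 93.5, 106, 141 and 118 on the NmU 12 h arrays, against 229.8, 190.3, 280.5 and 174 on the NmU 6 h arrays (-0.92 ± 0.17, adjusted p = 0.00445 and 0.00272). Lss had 210.5, 214, 192 and 189.9 on the NmU 12 h arrays, against 334, 329, 322 and 239 on the NmU 6 h arrays (-0.59 ± 0.12, adjusted p = 0.00806 and 0.00114). For both genes the 12 h signals lay below all 6 h signals. Fdft1, the branch point enzyme towards sterols, had 179.9, 123, 155 and 164 on the NmU 12 h arrays, against 251, 282, 262 and 236 on the NmU 6 h arrays (-0.74 ± 0.14, adjusted p = 0.00687 and 0.00864), and its call was lost without NmU 6 h replicate 2 (adjusted p = 0.0588). The demethylase Cyp51 differed by -0.85 (adjusted p = 0.0627 and 0.0655), Hmgcs1, which makes the precursor HMG-CoA, by -0.58 ± 0.16 (adjusted p = 0.0723 and 0.0955), and the isomerase Idi1 by -0.59 (adjusted p = 0.0882 and 0.0247). Farnesyl diphosphate synthase Fdps, upstream of the branch to sterols, had mean signals of 1765 at 12 h and 1725 at 6 h, a log2 difference of 0.05. NmU minus PBS at 12 h was 0.37 ± 0.15 for Sqle, 0.36 ± 0.17 for Msmo1, 0.08 ± 0.12 for Lss and -0.09 ± 0.14 for Fdft1, with adjusted p between 0.335 and 0.866. At 6 h these differences, which share the NmU 6 h arrays, were 1.21 ± 0.15, 1.28 ± 0.17, 0.54 ± 0.12 and 0.52 ± 0.14.

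**Figure D4:**
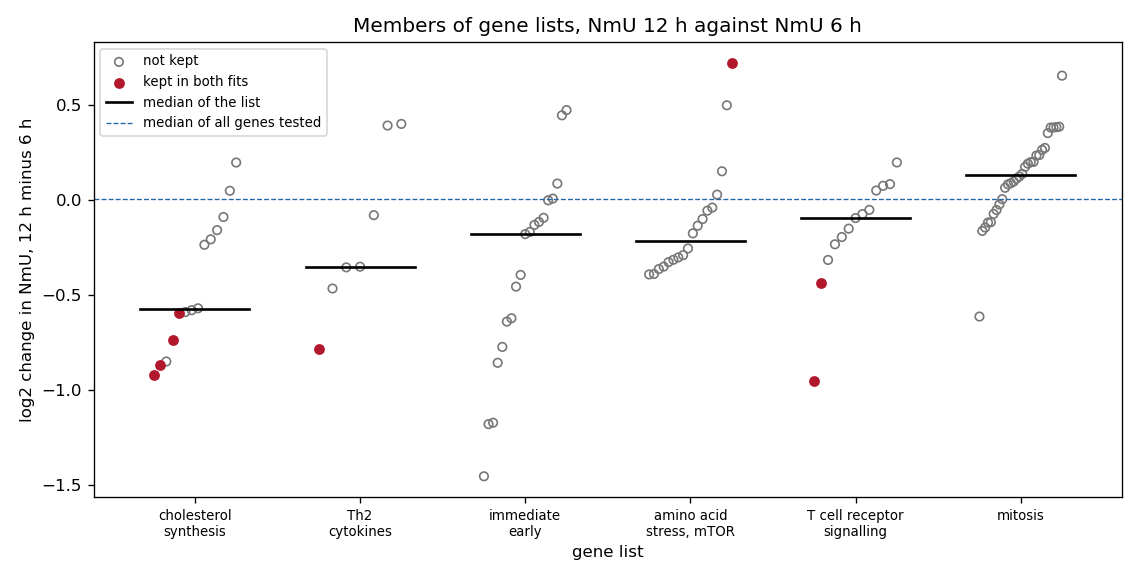
Log2 change between 12 h and 6 h of NmU for each tested member of 6 gene lists, with filled red points for members kept in both fits, open points for the others, black bars at the median of each list and a dashed line at the median of all 5615 genes tested (0.01). Cholesterol synthesis has the lowest median (-0.57) and mitosis the highest (0.13) of these 6 lists.

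The promoters of Msmo1 and Lss are shown because both genes fell and belong to 1 pathway. They are from RefSeq on GRCm38.p6 at chr8:64733579-64733828 on the minus strand and chr10:76531355-76531564 on the plus strand, the second cut to the 210 bases outside the annotated gene, and capitals mark the CCAAT box on either strand.
Msmo1: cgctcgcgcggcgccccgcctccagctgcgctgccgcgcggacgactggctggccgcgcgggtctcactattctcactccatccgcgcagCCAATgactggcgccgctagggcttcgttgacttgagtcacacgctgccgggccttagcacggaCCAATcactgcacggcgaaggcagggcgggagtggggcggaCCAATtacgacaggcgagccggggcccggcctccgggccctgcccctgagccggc
Lss: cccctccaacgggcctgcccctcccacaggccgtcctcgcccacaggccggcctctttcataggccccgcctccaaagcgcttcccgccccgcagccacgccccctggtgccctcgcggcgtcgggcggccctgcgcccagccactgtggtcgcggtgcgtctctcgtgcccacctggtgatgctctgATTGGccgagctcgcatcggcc
Msmo1 held 3 matches of CCAAT and Lss 1. The sterol regulatory element, searched as TCACNCCAC on both strands, had 0 matches in either window and was in 1.05% of all mouse promoters, and the E-box CACGTG had 0 matches and was in 6.02%. Gem, Sqle and Fdft1 are named without a promoter.

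Other genes that fell had various roles. The corepressor Tle3 of the Groucho family had 289, 356, 318 and 320 on the NmU 12 h arrays, against 527, 587, 498 and 413 on the NmU 6 h arrays (-0.65 ± 0.13, adjusted p = 0.00948 and 0.00325), and its call was lost without NmU 6 h replicate 2 (adjusted p = 0.0564). Ttc39b, a tetratricopeptide repeat protein, had 233, 230.4, 199 and 251 on the NmU 12 h arrays, against 388, 405, 375 and 263 on the NmU 6 h arrays (-0.63 ± 0.11, adjusted p = 0.00288 and 4.64e-05). Its 2 other tested probe sets differed by -0.48 and -0.45 and were not kept. Dnaaf5, an assembly factor of ciliary dynein, changed by -0.39 ± 0.08 (adjusted p = 0.00893 and 0.00319). A dimmer probe set of Dnaaf5 differed by -0.19 with all arrays and 0.05 without NmU 6 h replicate 4, and was not kept. Pigx, of the synthesis of GPI anchors, changed by -0.62 ± 0.14 (adjusted p = 0.0193 and 0.0102), the Notch inhibitor Numb by -0.62 ± 0.14 (adjusted p = 0.0234 and 0.0281) and the RNA helicase Ddx41 by -0.52 ± 0.12 (adjusted p = 0.0356 and 0.0105). These 3 calls were lost without 4, 5 and 6 of the 7 arrays, at adjusted p of up to 0.0900, 0.143 and 0.127. A second probe set of Numb differed by -0.06. A probe set of the chromatin remodelling subunit Smarcd2 was kept as lower (-0.79 ± 0.17), while 2 others of that gene differed by -0.0014 and 0.01.

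Among the genes that rose, Ak1, the cytosolic adenylate kinase that balances the adenine nucleotides, had 195, 213, 191 and 198 on the NmU 12 h arrays, against 94.5, 69.7, 73.6 and 67.8 on the NmU 6 h arrays. In PBS it had 89.7, 87.9, 71.7 and 95.3 on the PBS 12 h arrays, against 89.1, 74.1, 66.3 and 71.7 on the PBS 6 h arrays, so that the NmU 12 h arrays stood above every other array of these 4 groups. The log2 change in NmU was 1.39 ± 0.25 (adjusted p = 0.00288 and 0.0101), and the call was lost without NmU 6 h replicate 2 or 3, at an adjusted p of up to 0.0649. The calcium-independent phospholipase Pla2g6 had 57.2, 64.1, 45.9 and 32.4 on the NmU 12 h arrays, against 14.1, 13, 18.4 and 16.6 on the NmU 6 h arrays (1.65 ± 0.39, adjusted p = 0.035 and 0.0474). It was dim at 6 h, its PBS 12 h signals ran from 9.3 to 53.2, and its call was lost without 6 of the 7 arrays, at an adjusted p of up to 0.217.

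Dap, a death-associated protein that restrains autophagy, had 380.2, 374, 348 and 319 on the NmU 12 h arrays, against 259, 204, 252 and 236 on the NmU 6 h arrays (0.58 ± 0.09, adjusted p = 0.0012 and 0.00287). In PBS its means were 221 ± 7.46 at 12 h and 213 ± 4.34 at 6 h (SD, n = 4 each). Ncf4, a subunit of the phagocyte NADPH oxidase, had 319, 298, 357 and 299.6 on the NmU 12 h arrays, against 222, 201, 227 and 233 on the NmU 6 h arrays (0.53 ± 0.09, adjusted p = 0.00203 and 0.00256), and Tfpi, an inhibitor of the tissue factor pathway of clotting, had 87.2, 93.4, 107 and 97.5 on the NmU 12 h arrays, against 61.3, 57.5, 73.6 and 63.8 on the NmU 6 h arrays (0.59 ± 0.10, adjusted p = 0.0015 and 0.00319). None of these 3 sets of groups overlapped, but the genes were selected on these same arrays. Of all probe sets 3.82% had every NmU 12 h array above every NmU 6 h array, and 23 of the 24 kept as higher did. Csn1s1, the milk protein alpha-s1 casein, had 2875, 3116, 2979 and 3122 on the NmU 12 h arrays, against 2278, 2306, 2378 and 1770.4 on the NmU 6 h arrays (0.48 ± 0.09, adjusted p = 0.00445 and 0.0185), and its call was lost without NmU 6 h replicate 1, 2 or 3, at an adjusted p of up to 0.0799.

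The other 12 genes kept as higher by their brightest probe set moved by between 0.30 and 0.94 and lost the call without 4 or more of the 7 arrays, at an adjusted p of up to 0.303. They included Rad51b, of homologous recombination (0.94 ± 0.19), the splicing-associated Wbp4 (0.89 ± 0.21) and the nuclear lamina protein Lmna (0.70 ± 0.15). The choline transporter Slc44a1 (0.59 ± 0.14), the Ras activator Sos1 (0.58 ± 0.13), acylphosphatase Acyp1 (0.58 ± 0.12) and monoacylglycerol lipase Mgll (0.51 ± 0.12) were also among them. So were Rsrp1 (0.57 ± 0.11), the histone variant H2az2 (0.48 ± 0.11), the histone co-chaperone Dnajc9 (0.42 ± 0.09), the ubiquitin ligase subunit Rmnd5a (0.38 ± 0.09) and the enolase Eno3 (0.30 ± 0.07). Acyp1 showed the tightest 6 h group, with 262, 205, 252 and 203 on the NmU 12 h arrays, against 154, 151, 152 and 157 on the NmU 6 h arrays. Dimmer probe sets of Sbno1 (0.65 ± 0.16) and of the antibody receptor Trim21 (0.56 ± 0.13) were kept as higher. The brightest probe sets of these genes, at 0.24 ± 0.12 for Sbno1 and -0.02 for Trim21, were not kept. A further probe set of Sbno1, with a mean signal of only 20.6, differed by -0.41 ± 0.42.

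No gene of the lists of cell growth and maintenance was kept, where 0.374% of all genes were kept in each direction, a share at which lists of these sizes hold few or none. Of 30 tested genes of mitosis 22 had a change above 0 with a median of 0.13 (0.06 in PBS), led by Mki67, a protein of dividing cells, at 0.66 ± 0.23 (adjusted p = 0.219 and 0.168). The medians were -0.04 for 26 genes of DNA replication, -0.04 for 22 of ribosome biogenesis, -0.01 for 29 of the proteasome, 0.07 for 43 of the respiratory chain and -0.01 for 20 tRNA synthetases. They were -0.08 for 15 genes of glycolysis, 0.02 for 9 hypoxia-responsive genes, 0.01 for 10 of fatty acid metabolism, 0.05 for 13 of the unfolded protein response, 0.08 for 20 chaperones and -0.06 for 14 of oxidative stress. Of immune and survival genes, they were 0.06 for 23 interferon-responsive genes, -0.19 for 11 of the NF-kB pathway, -0.16 for 8 feedback regulators, -0.01 for 21 T helper transcription factors, 0.0012 for 18 activation markers and -0.00028 for 17 of apoptosis. The list of inhibitors of the cell cycle and of quiescence had a median of 0.11 over 17 genes. Its member Pdcd4, a repressor of translation, was called without NmU 6 h replicate 4 and not with it (1.09 ± 0.29, adjusted p = 0.0631 and 0.00232), having 79.4, 73.3, 67.5 and 106 on the NmU 12 h arrays, against 27.2, 20.9, 44.3 and 80.1 on the NmU 6 h arrays.

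Whether a change differed between NmU and PBS was tested as the difference between the changes from 6 h to 12 h. Of the 7479 probe sets, 6 were kept (0.0802%). The change was higher in NmU for Pth (1.04 ± 0.17, adjusted p = 0.00474 and 0.00949), Ddit4 (1.03 ± 0.18, adjusted p = 0.00776 and 0.0126) and Pcbd2 (0.56 ± 0.11, adjusted p = 0.0358 and 0.0465). It was lower in NmU for Ryr3 (-1.18 ± 0.22, adjusted p = 0.0205 and 0.0465), Gch1 (-0.80 ± 0.13, adjusted p = 0.00563 and 0.00882) and probe set 160832_at, which the probe table pairs with no single gene (-1.10 ± 0.15, adjusted p = 4.60e-04 and 9.70e-05). That probe set had 182, 202, 192 and 202 on the NmU 12 h arrays, against 379.6, 384, 426 and 313 on the NmU 6 h arrays. The difference was not kept for Gem (-1.82 ± 0.46, adjusted p = 0.185 and 0.086), Il4 (-0.68 ± 0.15, adjusted p = 0.0861 and 0.0711) or Lcp2 (-0.92 ± 0.20, adjusted p = 0.074 and 0.0126). For the other genes described above as changed in NmU, a difference from PBS was not kept either. The differences of Ddit4 and Pth were lost without NmU 6 h replicate 2 (adjusted p = 0.0775 and 0.0756), and those of Pcbd2 and Ryr3 were lost under 18 of 28 and 17 of 26 alternatives. After scaling to equal array medians Pth alone kept its difference (1.18, adjusted p = 0.0100), while that of Ddit4 was 1.16 (adjusted p = 0.0504) and that of Gch1 -0.66 (adjusted p = 0.272).

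Over all 31 arrays, the log2 signal of Gem correlated most with that of Btg1 (Pearson r = 0.892), the inhibitory receptor Lilr4b (0.869) and Hmgcs1 (0.851). Ddit4 was most like Pcyox1 (0.778), Klf10 (0.751) and Rsrp1 (0.745), and Pth was most like Csn1s1 (0.846), Dap (0.836) and Il5 (0.809). The arrays share treatment and time groups, so that these values describe likeness over the series. Between 12 h and 6 h of NmU, Btg1 differed by -0.15 ± 0.11 (adjusted p = 0.612 and 0.539), Lilr4b by -0.07 ± 0.14 (adjusted p = 0.871 and 0.875), Pcyox1 by 0.32 ± 0.12 (adjusted p = 0.234 and 0.371) and Klf10 by 0.09 ± 0.15 (adjusted p = 0.854 and 0.95).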

How the data were processed

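The authors deposited 1 intensity per probe set for each of 31 single-colour arrays, per the labels. Scanner software, probe summary and scaling: not given in the sources used here. Every array had nearly the same trimmed mean (150.095 to 150.113) in the values, so no further normalization was applied. Equal trimmed means make each change relative to the other transcripts of the array. There were 162 values of 0 and 0 identical pairs of arrays.

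Of 12488 probe sets 66 were array controls and were left out. The probe table gave 10833 of the other 12422 a single gene symbol, 396 several and 1193 none, and a RefSeq table (GRCm38.p6) matched 10817 by Entrez number and changed 0 symbols. Probe sets with _f_, _r_, _s_ or _g_ in their names can match more than 1 sequence. A gene was represented by its brightest probe set, by mean log2 signal over all arrays.

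Intensities were floored at 5.8 (the 20th percentile of all values) and taken to log2. Probe sets were tested where the mean log2 signal exceeded that of 20.2 (the 40th percentile) in NmU at 12 h or 6 h. The floor understates changes of dim transcripts. All 31 arrays entered 1 linear model with 8 group means, in limma 3.58.1 (R 4.3.3), with and without NmU 6 h replicate 4 (23 and 22 residual degrees of freedom). P-values were two-sided and adjusted by the Benjamini-Hochberg method over all probe sets tested. Probe sets called at an adjusted p under 0.05 in both fits, in the same direction, were kept. Tables were made in Python 3.11.15 with pandas 2.3.3. Both fits were first tried on simulated arrays holding known changes. Together they recovered 38% of 50 changes of 0.5 on the log2 scale, 76% of 50 changes of 1 and 96% of 50 changes of 2.

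The comparison, its gene lists and the rule for named genes were chosen with earlier results of these data known. The rule took Gem, Ddit4 and Pth, the 12 largest rises and 12 largest falls among kept genes, the 6 largest differences of each sign from PBS, all Th2 cytokines and chemokines, up to 4 members with the lowest p of every other list, Nmur1, the 3 genes most like each of Gem, Ddit4 and Pth over 31 arrays, and cell type markers. Other genes that the text names were chosen after their values were seen. Alternatives were other scalings, floors and filters, fits of the compared groups alone, a replicate block, array weights, a minimum fold and leaving out single arrays.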

Additional observations from a re-analysis of the deposited data

Results flagged for a closer look

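Within the NmU 12 h and 6 h groups of 4 arrays, 1 array stood apart from the other 3 in 27 of 334 tests, made on 167 probe sets, where chance gives about 1 in 20. In 8 of the 27 that array was NmU 6 h replicate 4. It was higher than the range of the other 3 arrays for Fos (336.7, against 28.5 to 33.6), Egr2 (1705.4, against 251.9 to 304.4), Ier2 (1051.3, against 376.7 to 409.6), Prkacb (587.4, against 440.2 to 455.2), Cpt1a (437.9, against 333.1 to 346) and Pfkm (91.4, against 63.5 to 67.3). It was lower for Lss (239.4, against 321.8 to 334.1) and Csn1s1 (1770.4, against 2277.9 to 2378.5).

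On NmU 6 h replicate 2 the signals that stood apart were 640.7 for Rsrp1 (others 488.8 to 503.9), 895.8 for Ccnd2 (708.6 to 722.8), 1002.4 for Tap1 (777.7 to 815.7), 93.7 for Birc2 (108.6 to 111.3), 1421.8 for probe set 102809_s_at (1332.7 to 1346.3) and 484.1 for probe set 161265_f_at (296 to 312.3). On NmU 6 h replicate 1 they were 285.2 for Ccna2 (260 to 260.8) and 348.8 for Gsr (308.1 to 309.7). On NmU 12 h replicate 4 they were 29.5 for Ccl4 (41.3 to 42.6), 150.7 for Klf10 (221 to 233.2), 64.3 for Ddx41 (50.2 to 52), 141.5 for Birc2 (123.2 to 126.1) and 88.6 for the kept probe set of Smarcd2 (54 to 59.8). On NmU 12 h replicate 3 they were 471.7 for Iars (370.4 to 382.3), 4101.6 for Hsp90aa1 (4397.6 to 4404.9) and 323.2 for Ctla4 (229.9 to 240.8). On NmU 12 h replicate 1 they were 39.1 for Fosl1 (57.6 to 58.5) and 9.6 for Runx1 (16.6 to 17.7), and on NmU 12 h replicate 2 it was 360.9 for Polr1a (290.7 to 296.7).

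For 6 probe sets the change from 6 h to 12 h differed between NmU and PBS by the test of the difference itself. On the log2 scale the difference was 1.04 for Pth (1.09 in NmU and 0.05 in PBS), 1.03 for Ddit4 (0.72 in NmU and -0.30 in PBS) and 0.56 for Pcbd2 (0.38 in NmU and -0.18 in PBS). It was -1.18 for Ryr3 (-0.82 in NmU and 0.36 in PBS), -0.80 for Gch1 (-0.79 in NmU and 0.01 in PBS) and -1.10 for probe set 160832_at (-0.94 in NmU and 0.16 in PBS).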

How the results depend on the processing

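In NmU, 56 probe sets were kept (24 higher, 32 lower), and 6 differed from PBS in their change. Scaling to equal array medians left 25 (9 higher, 16 lower) and 1, and put the median change of all probe sets at 0.03 in place of 0.0022. With only the groups compared in the fit 14 were kept (6 and 8) and 10 differed from PBS. Array weights gave 124 (56 and 68) and 18, leaving out PBS 3 h replicate 4 gave 95 (39 and 56) and 11, and requiring 1.5-fold gave 33 (11 and 22). Leaving out 1 array of the 2 NmU groups gave 23 to 85 kept, 7 to 39 higher and 14 to 46 lower, with 23 without NmU 6 h replicate 2 and 85 without NmU 6 h replicate 4. Between 2 and 9 then differed from PBS, with 2 without NmU 6 h replicate 2. In PBS 0 were called under every alternative run. The labels do not say whether replicate numbers pair the samples. Deviations of same-numbered NmU 12 h and 6 h arrays correlated at 0.05 to 0.19, and those of other numbers at -0.19 to 0.09. Not every array correlated best with its own number, and these values do not settle whether the samples are paired. The replicate block kept 54 with all arrays. With only the groups compared it kept 0 by limma (0 higher, 0 lower), with 1001 at an unadjusted p under 0.05. The cause of these moves was not tested. None of the 42 genes kept in NmU changed direction under these alternatives. Over all refits of the 42 genes the call held 583 times and was lost 252 times, and 0 of the 42 genes kept it under every alternative. The number of arrays and the signal over background limit dim genes such as Pla2g6 and Ryr3.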
